A study of Homo sapiens with 6 samples.

Results

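Cells build cholesterol and fatty acids from the same precursor, acetyl-CoA, and the 30 genes described here encode the enzymes of both routes together with the proteins that control them. They were chosen by name, with no threshold on their values but with earlier results of these data known, and all 30 have a row in the gene table among 32679 genes. Of the 30, 7 act from acetyl-CoA to farnesyl diphosphate (the mevalonate pathway), 11 act from squalene formation to cholesterol, 6 control the pathway or carry sterols, and 6 make fatty acids. RNA was measured by paired-end RNA-seq in HEY cells, a human ovarian cancer cell line, in 2 groups of 3 samples, all labelled day 3. The shNC group carried a control hairpin and had no treatment, and the shPQBP1 group carried a hairpin against PQBP1 and was given doxycycline at 1 µg/ml, which switches the hairpin on. Both lines were made with lentivirus and selected with puromycin. Hairpin and doxycycline differed together between the groups, so their parts cannot be told apart. The design text calls the samples biological triplicates, and since the labels do not tie them to separate cultures, the p-values measure the spread between these samples, which may be technical in part.

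PQBP1 is an RNA-binding protein that takes part in pre-mRNA splicing. The sterol pathway is known for its feedback control. SREBP transcription factors, encoded by SREBF1 and SREBF2, are made as membrane proteins of the endoplasmic reticulum, and SCAP escorts them to the Golgi for cleavage when sterols are scarce. When sterols are plentiful, INSIG proteins hold SCAP in the endoplasmic reticulum and the cleaved factor is not made. SREBP-2 acts mainly on cholesterol genes and SREBP-1c mainly on fatty acid genes, and tumour cells often make their own fatty acids.

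Values are FPKM, a read density corrected for transcript length and for the mapped fragments of each sample, so levels can be set side by side between genes. Total FPKM was 278285.8 to 318484.3 per sample, and 26.5 to 29.8% of genes were listed at 0. The depth of the libraries is unknown. PQBP1 was at 7.18, 6.67 and 6.93 FPKM in shNC and 1.68, 1.72 and 1.44 in shPQBP1, a log2 fold change of -2.04 ± 0.10 (SE, limma, Benjamini-Hochberg adjusted p = 0.00154). The epithelial markers KRT7, KRT8, KRT18 and EPCAM summed to 191.53 to 226.63 FPKM in shNC and 199.51 to 218.9 in shPQBP1. The 3 liver markers found in the table, from a tissue that makes much lipid, summed to at most 0.06 in any sample, and the 2 leukocyte markers found there to at most 0.09, with PTPRC and APOA1 at 0 in every sample. All genes with names that start with MT-, the mitochondrially encoded genes, summed to 98869.8 to 111905.4 FPKM in shNC and 80296.0 to 87544.6 in shPQBP1, with no overlap. The mesenchymal markers VIM, CDH2, ZEB1 and FN1 summed to 1181.99 to 1295.21 FPKM in shNC and 1431.54 to 1531.52 in shPQBP1, again with no overlap, and FN1 alone was at 43.4 ± 1.06 and 144 ± 14.5. Of the ovarian lineage markers, PAX8 was at 12.33 to 15.7 FPKM in shNC and 18.41 to 24.08 in shPQBP1, SOX17 at 0.88 to 1.38 and 1.65 to 1.85, WT1 the other way at 0.63 to 0.71 and 0.31 to 0.45, and MUC16 at 0 to 0.01. CDH5, an endothelial marker, was at 2.11 to 2.96 FPKM in shNC and 3.1 to 3.64 in shPQBP1. PECAM1, another, went the other way at 0.23 to 0.25 and 0.02 to 0.06, and VWF and KDR were at most 0.18. The part of these differences in the results below was not tested. In such bulk samples, fewer cells of a type and less RNA per cell cannot be told apart.

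Promoter sequence is shown for 4 members to set the letters beside the levels given below. ACLY and SCD fell upon PQBP1 knockdown, and HMGCS1 and SREBF2 are from the cholesterol side and were not called. Each run is the 250 bases before a RefSeq transcription start on GRCh38.p14, written 5′ to 3′ on the strand of the gene. Capitals mark CCAAT, the box bound by NF-Y, in either orientation (CCAAT or ATTGG) and, in SREBF2, 1 match to TCACNCCAC, a form of the sterol regulatory element.
ACLY, chr17:41919023-41919272, minus strand, 1 of 2 listed starts: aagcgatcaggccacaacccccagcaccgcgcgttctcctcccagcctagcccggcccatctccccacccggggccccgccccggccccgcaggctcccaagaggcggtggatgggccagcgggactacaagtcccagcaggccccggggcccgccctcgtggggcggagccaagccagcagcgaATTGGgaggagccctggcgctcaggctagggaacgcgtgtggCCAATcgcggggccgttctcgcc
SCD, chr10:100346983-100347232, plus strand: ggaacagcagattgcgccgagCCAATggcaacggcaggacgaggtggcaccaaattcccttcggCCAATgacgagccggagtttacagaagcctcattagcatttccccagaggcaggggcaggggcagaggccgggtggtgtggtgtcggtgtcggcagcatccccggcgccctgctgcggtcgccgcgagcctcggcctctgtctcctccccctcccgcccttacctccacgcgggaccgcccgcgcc
HMGCS1, chr5:43313413-43313662, minus strand, 1 of 2 listed starts: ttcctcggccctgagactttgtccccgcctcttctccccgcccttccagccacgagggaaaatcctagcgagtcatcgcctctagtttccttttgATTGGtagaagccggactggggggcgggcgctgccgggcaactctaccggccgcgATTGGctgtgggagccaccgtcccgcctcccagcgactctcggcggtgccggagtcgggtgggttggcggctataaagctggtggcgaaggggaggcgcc
SREBF2, chr22:41832855-41833104, plus strand: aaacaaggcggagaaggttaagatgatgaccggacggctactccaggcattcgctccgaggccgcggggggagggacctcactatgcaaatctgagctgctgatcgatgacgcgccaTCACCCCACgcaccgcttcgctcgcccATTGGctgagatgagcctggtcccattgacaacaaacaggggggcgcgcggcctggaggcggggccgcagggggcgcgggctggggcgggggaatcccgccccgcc
ACLY, SCD and HMGCS1 each hold 2 CCAAT boxes here, and SREBF2 holds 1 beside its sterol element.

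RefSeq promoters were found for 26 of the 30 members, with 36 windows, since some genes have several starts, and windows of a gene can overlap. No entry was used for ACAT2, FDFT1, SQLE or FASN. CCAAT, searched on both strands, lay in 24 of the 36 windows (66.7%, 20 genes) and in 32.0% of all 35116 promoter windows of the same length. The letters TCACNCCAC lay in the SREBF2 window alone among the 36 (2.78%), beside 0.883% of all windows. The E-box CACGTG lay in 4 windows (11.1%), of INSIG1, SC5D and SCAP, beside 6.34% of all windows. These shares describe letters in a fixed window, and a match is not evidence of binding in HEY cells.

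Upon PQBP1 depletion, the fatty acid enzymes ACLY, SCD and FASN fell, with changes of -31.8 to -36.4% in mean FPKM, and no enzyme of the cholesterol route was called in either direction. Of the 30 members, 29 reached a mean of 1 FPKM over the 6 samples and were tested on log2(FPKM + 0.1) with limma over 11413 genes. At an adjusted p under 0.05, 3 members were lower and 0 were higher, where 2.91% of all genes tested were called (1.73% as higher and 1.18% as lower). With the threshold of the study, an unadjusted p under 0.05, 2 members were higher and another 7 were lower (31% of the 29), where the share over all genes was 23.6% (11.9% higher and 11.7% lower). With a fold change over 2 on the log2(FPKM + 0.1) scale as well, 0 members passed, beside 1.52% of all genes. On the ratio of mean FPKM, INSIG2 (104% higher) would pass. The groups did not overlap in 9 members that were lower and 2 that were higher, and the share over all genes was 34.4% (17.3% higher and 17.1% lower). The median log2 fold change of the 29 was -0.10, beside 0.02 over all genes, with 19 members below 0 and 10 above.

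**Figure D1:**
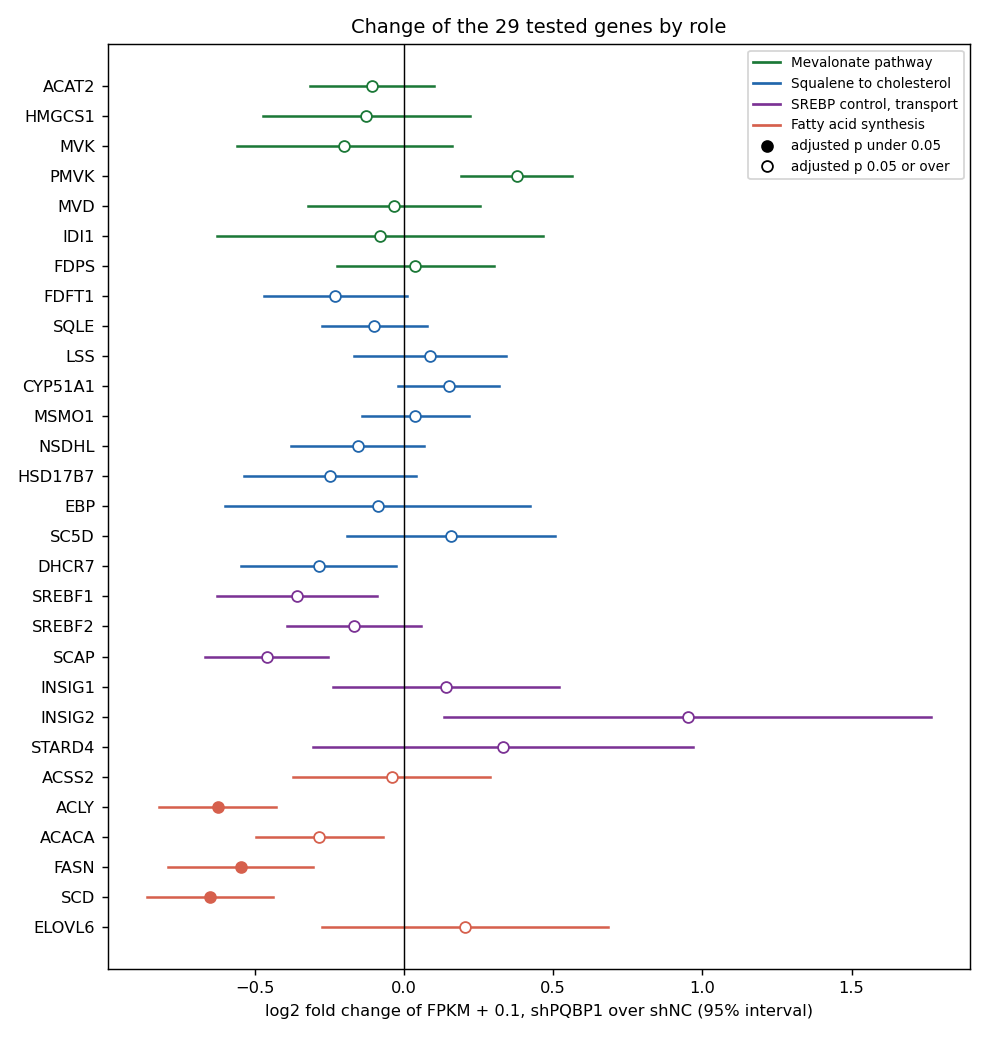
Log2 fold change of FPKM + 0.1 (x axis, shPQBP1 over shNC) for the 29 tested genes, coloured by role, with 95% intervals from limma and n = 3 samples per group. Filled points, at an adjusted p under 0.05, are ACLY, FASN and SCD, and INSIG2 has the widest interval, from 0.14 to 1.77.

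The 6 fatty acid genes held all 3 calls. ACLY, which cleaves citrate in the cytosol to give acetyl-CoA for both routes, is on chromosome 17 (hg38, 41866917 to 41930542, minus strand). Its level was 66.3, 59.42 and 57.21 FPKM in the shNC samples and 38.07, 40.6 and 39.7 in the shPQBP1 samples. The lowest control lay well above the highest knockdown sample. The mean level went from 61.0 ± 4.74 to 39.5 ± 1.28 FPKM (SD, n = 3), a change of -35.3% and a log2 fold change of -0.62 ± 0.08 (SE, limma adjusted p = 0.0201).

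SCD, the desaturase that turns stearoyl-CoA into oleoyl-CoA, was the most abundant of the 30 genes in both groups. It lies on chromosome 10 (hg38, 100347233 to 100364826, plus strand). Its level was 93.49, 84.47 and 80.81 FPKM in shNC and 51.67, 54.26 and 58.74 in shPQBP1. All knockdown samples lay below all controls, by more than the range within either group. The mean level went from 86.3 ± 6.53 to 54.9 ± 3.58 FPKM, a change of -36.4% and a log2 fold change of -0.65 ± 0.09 (SE, limma adjusted p = 0.0229).

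FASN, the synthase that builds palmitate from acetyl-CoA and malonyl-CoA, is on chromosome 17 (hg38, 82078338 to 82098294, minus strand). Its level was 20.72, 19.32 and 17.37 FPKM in shNC and 11.97, 13.85 and 13.31 in shPQBP1. The groups again did not overlap. The mean level went from 19.1 ± 1.68 to 13 ± 0.97 FPKM, a change of -31.8%, with a log2 fold change of -0.55 ± 0.10 (SE, limma adjusted p = 0.0485), just under the threshold.

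All of these calls were lost without any one of 5 of the samples, and without shNC 1 only that of FASN was lost. Over all genes tested, 2.91% were called with all 6 samples and 4.07% without shNC 1. Without any one of the 5 other samples the share was 0.264 to 0.816%. The adjusted p in limma of ACLY was 0.0165 without shNC replicate 1 and 0.0643, 0.0633, 0.0965, 0.0896 and 0.111 without shNC 2, shNC 3, shPQBP1 1, shPQBP1 2 and shPQBP1 3, while its log2 fold change stayed between -0.67 and -0.56. SCD kept its call only without shNC 1 (adjusted p in limma of 0.0251) and had adjusted p-values of 0.067 to 0.0992 without any one of the 5 other samples, with log2 fold changes of -0.70 to -0.59. FASN was not called without any one of the 6 samples (adjusted p in limma of 0.0577 to 0.176, log2 fold changes of -0.62 to -0.49).

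ACACA makes malonyl-CoA, the step that commits acetyl-CoA to fatty acids. It was at 5.91, 5.46 and 5.38 FPKM in shNC and 4.35, 4.48 and 4.88 in shPQBP1. The controls lay above the knockdown samples with no overlap, at means of 5.58 ± 0.29 and 4.57 ± 0.28, but the log2 fold change of -0.28 ± 0.09 (SE) had a limma adjusted p of 0.134. ACSS2, which makes acetyl-CoA from acetate, overlapped between the groups (2.39 ± 0.14 and 2.34 ± 0.36 FPKM). ELOVL6, the elongase that takes palmitate to stearate, also overlapped, with a control sample at 3.82 FPKM below the other 5 at 5.88 to 6.44 (limma adjusted p = 0.54).

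**Figure D2:**
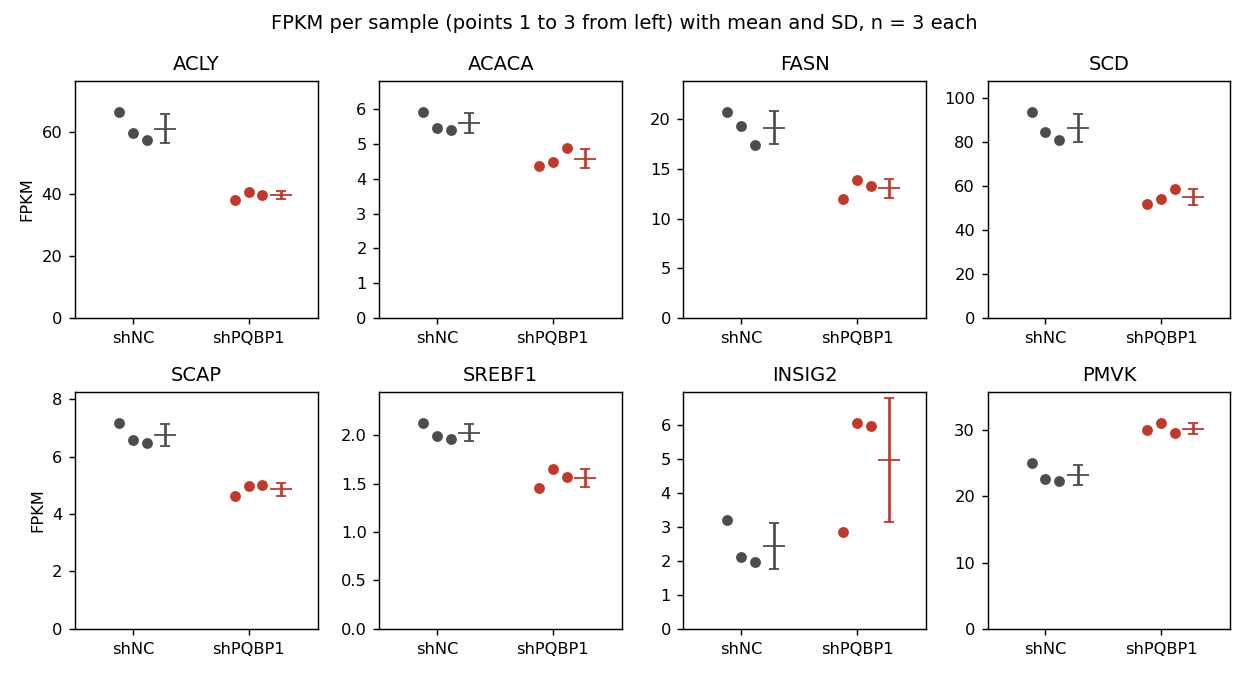
FPKM of 8 genes in each sample (points, replicates 1 to 3 from left) with the mean and SD of each group of 3. In ACLY, ACACA, FASN, SCD, SCAP and SREBF1 every shPQBP1 sample lies below every shNC sample, in PMVK every one lies above, and in INSIG2 shPQBP1 replicate 1 (2.85) lies among the controls.

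Summed over its 6 genes, fatty acid synthesis was at 192.74, 177.25 and 169.2 FPKM in shNC and 114.13, 121.16 and 125.82 in shPQBP1, a difference of -33% between the means of 180 ± 12 and 120 ± 5.88. SCD and ACLY make up most of that sum. The 7 mevalonate genes summed to 142 ± 5.54 and 145 ± 3.94 FPKM, the 11 genes from squalene to cholesterol to 165 ± 5.97 and 155 ± 7.59, and the 6 control and transport genes to 44.9 ± 1.16 and 45.3 ± 1.83. The last 3 sums overlapped between the groups. Within a sample, the fatty acid sum was 1.06 to 1.12 times the squalene-to-cholesterol sum in shNC and 0.75 to 0.81 times that sum in shPQBP1.

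**Figure D3:**
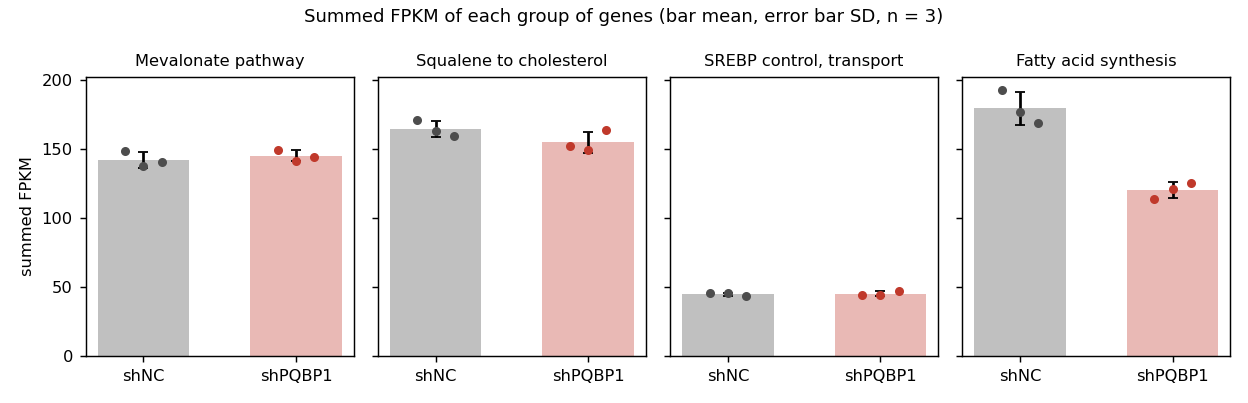
Summed FPKM (y axis) of the genes of each role in shNC and shPQBP1, with bars for the mean, error bars for the SD and points for the 3 samples. The fatty acid sum was 180 in shNC and 120 in shPQBP1, while the samples of the 2 groups overlapped in the other sums.

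Of the 17 cholesterol enzymes tested, 0 were called in the limma fit, where 2.91% of all genes were, and 2 (11.8%), PMVK and DHCR7, had an unadjusted p under 0.05, where 23.6% of all genes did. Whether they differed from the fatty acid genes was not tested. In the mevalonate pathway, ACAT2, which joins acetyl-CoA units, HMGCS1, the synthase of HMG-CoA, MVK and MVD, a kinase and the decarboxylase that act on mevalonate and its phosphates, IDI1, the isomerase, and FDPS, which makes farnesyl diphosphate, all overlapped between the groups. Their log2 fold changes ran from -0.20 for MVK to 0.04 for FDPS, with limma adjusted p-values of 0.422 to 0.879. IDI1 varied more within a group than between groups, at 16.28, 25.15 and 24.15 FPKM in shNC and 25.77, 16.69 and 19.38 in shPQBP1.

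PMVK, the kinase that makes mevalonate diphosphate, went the other way from the fatty acid genes. Its level was 24.97, 22.56 and 22.22 FPKM in shNC and 29.91, 31.08 and 29.56 in shPQBP1. Every knockdown sample lay above every control, at means of 23.2 ± 1.5 and 30.2 ± 0.80. The log2 fold change was 0.38 ± 0.08 (SE) with a limma adjusted p of 0.0586, which was 0.0261 without shNC 1, 0.13 to 0.197 without any one of the other 5 samples and 0.042 when only genes with a mean of at least 10 FPKM were tested.

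SQLE, squalene epoxidase and a rate-limiting step after squalene, was at 43.13, 44.1 and 41.96 FPKM in shNC and 40.34, 37.83 and 42.49 in shPQBP1. The groups overlapped, and the log2 fold change of -0.10 had a 95% interval of -0.28 to 0.08 (limma adjusted p = 0.417). Set against SQLE within each sample, SCD was 2.17, 1.92 and 1.93 times as high per length in shNC and 1.28, 1.43 and 1.38 times in shPQBP1. ACLY was at 1.54, 1.35 and 1.36 times SQLE in shNC and 0.94, 1.07 and 0.93 times in shPQBP1. Neither ratio overlapped between the groups (exact two-sided permutation p = 0.1 for each, the smallest that 3 against 3 samples allow). Of the 9 ratios computed, all but INSIG2 over INSIG1 (exact permutation p = 0.3) reached that p. The ratios to SQLE restate levels given above and are not separate support.

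FDFT1, squalene synthase, had no overlap between groups (28 ± 2.09 and 23.9 ± 2.14 FPKM), with a log2 fold change of -0.23 and a limma adjusted p of 0.224. CYP51A1, the lanosterol demethylase, also had no overlap but in the other direction, at 13.2 ± 0.40 and 14.7 ± 0.32 FPKM, a log2 fold change of 0.15 with a limma adjusted p of 0.248. DHCR7, the reductase of the last step to cholesterol, was at 12.49, 10.98 and 10.42 FPKM in shNC and 9.28, 8.43 and 10.02 in shPQBP1, without overlap (log2 fold change -0.29, limma adjusted p = 0.182). LSS, which closes the sterol ring, and MSMO1, NSDHL, HSD17B7, EBP and SC5D, which remodel it, overlapped between the groups, with log2 fold changes of -0.25 for HSD17B7 to 0.16 for SC5D and limma adjusted p-values of 0.259 to 0.808. TM7SF2, a sterol reductase, was below the mean of 1 FPKM and was not tested (0.85 ± 0.10 and 0.70 ± 0.09 FPKM).

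Among the 6 genes of control and transport, 3 had an unadjusted p under 0.05 (SCAP and SREBF1 lower, INSIG2 higher), where 23.6% of all genes did. By adjusted p, limma called 0 of the 6, where 2.91% of all genes were called, and their median log2 fold change was -0.01. SCAP came closest, at 7.18, 6.58 and 6.47 FPKM in shNC and 4.61, 4.98 and 5.02 in shPQBP1. The groups did not overlap, and the means of 6.74 ± 0.38 and 4.87 ± 0.23 FPKM differed by -27.8%. Its log2 fold change of -0.46 ± 0.09 (SE) had a limma adjusted p of 0.0502, of 0.0434 and 0.048 after median-of-ratios scaling and quantile normalization, and of 0.0512 to 0.184 with 1 sample left out.

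SREBF1 was low, at 2.13, 1.99 and 1.96 FPKM in shNC and 1.46, 1.65 and 1.57 in shPQBP1, with no overlap and a log2 fold change of -0.36 ± 0.11 (SE, limma adjusted p = 0.133). SREBF2 was 9.31 to 10.5 times as abundant per length as SREBF1 in the controls, at 22.27, 19.65 and 18.25 FPKM in shNC and 17.59, 18.1 and 17.64 in shPQBP1. Its groups did not overlap but nearly met, at 18.25 and 18.1, and its log2 fold change was -0.17 ± 0.09 (SE, limma adjusted p = 0.306). Gene totals do not separate SREBP-1a from SREBP-1c, which are made from different starts of SREBF1, or uncleaved from cleaved protein.

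INSIG2, which retains SCAP in the endoplasmic reticulum, had the largest log2 fold change of the set and the largest standard error. It was at 3.21, 2.12 and 1.98 FPKM in shNC and 2.85, 6.07 and 5.97 in shPQBP1. Replicates 2 and 3 of shPQBP1 were high, and replicate 1 lay below the first control, so the groups overlapped. The log2 fold change was 0.95 ± 0.34 (SE, limma adjusted p = 0.166), and 1.302 ± 0.228 without shPQBP1 1 (limma adjusted p = 0.11).

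INSIG1 is itself a target of SREBP and is widely read as a sign of its activity. It was at 4.71, 3.64 and 4.12 FPKM in shNC and 5.13, 3.77 and 4.93 in shPQBP1. These overlapped, and the log2 fold change of 0.14 had a 95% interval of -0.24 to 0.52 (limma adjusted p = 0.59). STARD4, which carries cholesterol between membranes, was at 5.98, 11.61 and 10.74 FPKM in shNC and 12.41, 9.85 and 12.26 in shPQBP1, with the lowest value in shNC 1 (limma adjusted p = 0.452).

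Transcript GC content moved with the fold changes across the table. Over 11385 tested genes with a transcript, the log2 fold change and GC content had a Spearman rho of -0.459. This is a description over genes, not over independent samples. The median log2 fold change went from 0.28 at 35 to 40% GC to -0.21 at 65 to 70%. FASN (65.3% GC) and SCAP (61.7%) are GC-rich, INSIG2 (36.3%) is AT-rich, and ACLY (52%) and SCD (46.5%) are near the median of 47.5%. With the trends on GC and length removed from each sample, the log2 fold change was -0.57 for ACLY, -0.66 for SCD and -0.40 for FASN (limma adjusted p of 0.0034, 0.00965 and 0.0257). The same correction gave 0.56 for PMVK (limma adjusted p = 0.0101), -0.28 for SCAP (0.0507), -0.18 for SREBF1 (0.198) and 0.68 for INSIG2 (0.374). The fatty acid calls remained and PMVK was called as higher. With this correction 8.24% of all genes tested were called, where 2.91% were without it. The value for SREBF1 moved from -0.36 to -0.18. The correction also took the log2 fold change of CYP51A1 from 0.15 to 0.007, of DHCR7 from -0.29 to -0.11, of SREBF2 from -0.17 to -0.03 and of STARD4 from 0.33 to 0.03. HMGCS1 moved away from 0, from -0.13 to -0.36 (limma adjusted p = 0.0657). Values for the other members that moved, such as MVK (-0.20 to -0.007), IDI1 (-0.08 to -0.30), FDPS (0.04 to 0.17) and LSS (0.09 to 0.23), were not called either.

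**Figure D4:**
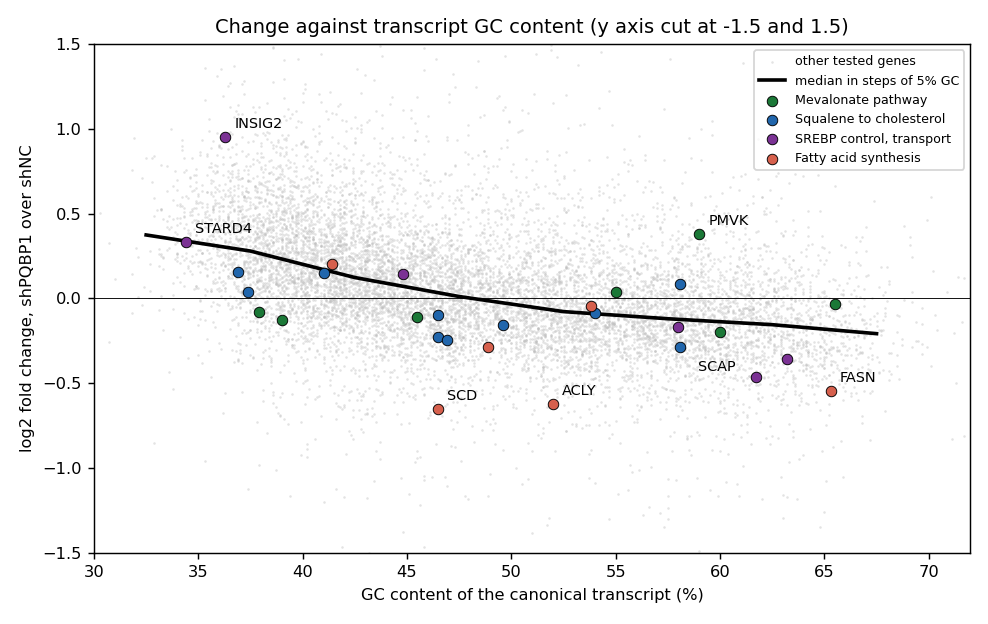
Log2 fold change of FPKM + 0.1 (y axis, cut at -1.5 and 1.5) against GC content of the canonical transcript in percent (x axis), with tested genes in grey, the members coloured by role and a line for the median of all genes in steps of 5% GC. ACLY and SCD lie below the line at their GC content, FASN lies below it at 65.3% GC, and PMVK lies above it at 59%.

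Other genes of lipid metabolism, in lists written with earlier results of these data known, held 2 calls among 78 genes tested in 6 lists (2.56%, beside 2.91% of all genes), both lower. Of 17 tested genes for fatty acid elongation, desaturation and NADPH supply, 1 was called in limma. FADS1, the delta-5 desaturase, was at 15.34, 14.48 and 14.38 FPKM in shNC and 10.7, 11.27 and 10.68 in shPQBP1, without overlap, and fell by 0.43 on the log2 scale (SE 0.07, limma adjusted p = 0.0362). HACD2, a dehydratase of elongation, had the largest log2 fold change of that list at 1.08, but shNC 3 (8.7 FPKM) lay above all shPQBP1 samples (7.09 to 7.94) while shNC 1 and 2 were at 2.37 and 1.91. OXSM, of mitochondrial fatty acid synthesis, had shNC 3 among the knockdown samples in the same way (log2 fold change -0.68, limma adjusted p = 0.271).

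Of 14 tested genes of triglyceride and phospholipid assembly, 1 was called in limma. DGAT1, which makes the last step to triglyceride, was at 2.17, 2.1 and 2.3 FPKM in shNC and 1.33, 1.43 and 1.38 in shPQBP1 and fell by 0.63 on the log2 scale (SE 0.11, limma adjusted p = 0.0384), with no overlap. Both calls were lost without any one of the 3 shPQBP1 samples, when 0 genes of the other lists were called, and without shNC 3, when the 1 gene called was higher. CHKA, choline kinase, had a log2 fold change of -0.33 (limma adjusted p = 0.147). In the machinery that processes SREBP and degrades sterol-regulated proteins, 0 of 10 tested genes were called in limma. An unadjusted p under 0.05 was seen for 1 that was higher and 2 that were lower, where the share over all genes was 23.6%. NPLOC4, which helps VCP pull proteins from the membrane, had a log2 fold change of -0.30 without overlap (limma adjusted p = 0.12).

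Some rows can take reads from a neighbour, since the strand of counting is not given in the sources used here. In GENCODE release 44, exons of SREBF1 share 556 bases (6.8%) with RAI1 on the opposite strand, which was at 2.7 and 1.99 FPKM in shNC and shPQBP1. ACAT2 shares 454 bases (17.2%) with TCP1 on the opposite strand. TCP1 was at 54.43 and 60.89 FPKM in shNC and shPQBP1, above ACAT2 itself at 32.9 and 30.5. Its part in the values of ACAT2 was not tested. CYP51A1 shares 68.2% with a second protein-coding gene model on the same strand, listed at 0. EBP shares 36.4% with a protein-coding model on the same strand, at 0.16 FPKM in shNC and 0 in shPQBP1. HMGCS1 shares 37.7% with a long non-coding RNA on the opposite strand that has no listed level. Pseudogene copies were low, with SCDP1 at a mean of 0.06 FPKM and CYP51A1P2 at 0.24.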

How the data were processed

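RNA of 6 HEY samples (3 shNC, 3 shPQBP1) was sequenced on an Illumina instrument. Per the submitters' processing notes the authors used HISAT2 (2.2.0), SAMtools (1.9), StringTie (1.3.0) and edgeR with hg38. The annotation release and strand setting are not given in the sources used here. The authors deposited FPKM per gene and sample, without pooling replicates. Columns of the authors' own comparison (fold changes, p- and q-values, calls) were not used. Steps of whole reads were sought in the low FPKM of 1301 to 1449 genes with 1 exon and were not found (strength 0.071 to 0.092), so depth is unknown, and limma replaced the count test of the study.

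Tests (two-sided) were made with limma (3.58.1, R 4.3.3) on log2(FPKM + 0.1) of the 11413 genes whose mean FPKM reached 1, with a mean-variance trend in eBayes, and p-values were adjusted by Benjamini-Hochberg over all of them. Fold changes on this scale understate those of low genes. Exact permutation tests (smallest p 0.1) were run in R, and promoters were searched in Python (3.11.15). The limma step was tested on simulated data. Members and lists were chosen with earlier results of these data known. All 30 members are named, with values per sample for the 8 of smallest p and for SREBF2, INSIG1 and SQLE, others being added for their scatter or lack of overlap after their values were seen. Of each other list, called genes and the 2 of largest absolute change are named, except 1 gene that is not reported here. Alternatives were median-of-ratios scaling, quantile normalization, other filters and pseudocounts, no trend, the replicate number as a block, a correction for GC content and length (natural splines, 5 degrees of freedom, GENCODE 44) and each sample left out.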

Additional observations from a re-analysis of the deposited data

How the results depend on the processing

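Of the 29 members tested, 21 kept their direction under every alternative that tested them (16 for 15 members, 15 for the 14 with a mean FPKM under 10) and 8 reversed in at least 1, all 8 with a main log2 fold change of at most 0.203 in size. ACLY and SCD were called under 9 alternatives each and FASN under 6. Genes called over the table, 332 in all, were 190 with genes above 0 in at least 1 sample, 211 with a mean FPKM of at least 10, 938 with the GC and length correction and 30 to 466 with 1 sample left out. Members called, 3 in all, were 0 to 3 with 1 sample left out, and members at an unadjusted p under 0.05, 9 in all, were 5 with a mean of at least 10 and 6 to 10 with 1 sample left out. Genes called in the other lists, 5 in all, were 0 with genes above 0 in at least 1 sample, 11 with the GC and length correction and 0 to 7 with 1 sample left out. The members' median log2 fold change stayed between -0.16 and -0.06. Deviations of same-numbered samples had correlations of -0.186, -0.138 and -0.011, and those of other pairs ran from -0.143 to 0.225. These values cannot show whether same-numbered samples were handled together, which the labels do not say. With the replicate block, 0 genes were called by limma over the table (1840 at an unadjusted p under 0.05), 0 members, 5 members at an unadjusted p under 0.05 and 0 genes of the other lists, and PQBP1 had a log2 fold change of -2.04 (limma adjusted p = 0.0686). With the GC and length correction together with the replicate block, 21 genes, 0 members and 0 genes of the other lists were called, and PQBP1 was at -1.86 (limma adjusted p = 0.0543). Log2 fold changes that reversed under the GC and length correction, with and without the block, were 0.064 for ACSS2, 0.024 for EBP, -0.18 for MSMO1, 0.2 for MVD and -0.136 for SC5D. With 1 sample left out, values that reversed in at least 1 case ran from -0.16 to 0.037 for ACSS2, -0.321 to 0.033 for EBP, -0.022 to 0.336 for ELOVL6, -0.051 to 0.14 for FDPS, -0.28 to 0.058 for IDI1 and -0.103 to 0.077 for MVD. The cause of these changes was not tested.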

Other observations

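Genes that use or pass on the products of these pathways were also read from lists written with earlier results of these data known. In the isoprenoid branch and protein prenylation, 0 of 11 tested genes were called by limma at an adjusted p under 0.05, where 2.91% of all genes were. An unadjusted p under 0.05 was seen for 3 that were higher and 1 that was lower, where the share over all genes was 23.6%. GGPS1, which makes geranylgeranyl diphosphate from the product of FDPS, was at 3.29, 4.3 and 4.25 FPKM in shNC and 5.97, 6.27 and 5.33 in shPQBP1 (log2 fold change 0.56, limma adjusted p = 0.0818). RCE1, the protease that trims prenylated proteins, was at 4.8, 4.12 and 4.25 FPKM in shNC and 2.69, 3.01 and 3.16 in shPQBP1 (log2 fold change -0.56, limma adjusted p = 0.0537). Neither gene overlapped between the groups. In sterol efflux, esterification and the LXR response, 0 of 10 tested genes were called. An unadjusted p under 0.05 was seen for 2 that were higher and 3 that were lower, again beside 23.6% of all genes. MYLIP, a ubiquitin ligase and LXR target, was at 3.75 ± 0.35 and 2.76 ± 0.14 FPKM (log2 fold change -0.42, limma adjusted p = 0.0927), and STARD3, a sterol carrier of late endosomes, at 6 ± 0.88 and 4.55 ± 0.28 (log2 fold change -0.38, limma adjusted p = 0.148).

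In fatty acid oxidation and activation, 0 of 16 tested genes were called by limma. An unadjusted p under 0.05 was seen for 2 that were higher and 1 that was lower, where the share over all genes was 23.6%. The largest log2 fold changes of that list were 0.41 for CPT1B, a carnitine palmitoyltransferase, and 0.39 for ACSL4, an acyl-CoA synthetase for arachidonate, and both overlapped between the groups. The 13 mitochondrially encoded genes listed all had log2 fold changes below 0, with a median of -0.30. Of the 13, 12 were lower without overlap between the groups, where 17.1% of all genes tested were (34.4% in either direction). Of these, MT-ND1, MT-ND2 and MT-ND3, subunits of complex I, fell by 0.39, 0.55 and 0.48 on the log2 scale (limma adjusted p of 0.0282, 0.0154 and 0.0485), and MT-ND6 had a log2 fold change of -0.56 (limma adjusted p = 0.0781). These 3 calls among the 13 genes, where 2.91% of all genes were called, were lost without any one of the 3 shPQBP1 samples and without shNC 3.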
